A study of Arabidopsis thaliana with 18 samples.

Results

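Glutathione S-transferases (GSTs) join the thiol of glutathione to reactive or foreign compounds, and the conjugates are then carried into the vacuole and broken down. The tau (GSTU) and phi (GSTF) classes are the large plant-specific classes, many of whose genes lie in tandem arrays made by duplication and are known for their induction by oxidative stress, defense hormones and xenobiotics. Described here are 33 such genes of *Arabidopsis thaliana*, 24 tau and 9 phi genes, taken from the 33602 loci of the count table by a fixed list of gene identifiers that left out *GSTF12*. Each was matched to its symbol in the RefSeq annotation of TAIR10.1. The list rests on gene class and has no threshold on a measured value, but it was chosen with earlier results of these data known. It also leaves out 7 further tau and phi genes, which stand in a second list described below.

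RNA had been sequenced from total leaf tissue of *fc2* (*fc2-1*), *fc2 pub4* (*fc2-1 pub4-6*) and wild type (wt, Col-0) plants, in 3 libraries for each genotype and light condition and 18 in all. *fc2* plants carry a mutation in plastid ferrochelatase 2, and in diurnal (cycling) light they accumulate protoporphyrin IX and with it singlet oxygen in their chloroplasts. PUB4 is a plant U-box E3 ubiquitin ligase whose *pub4-6* mutation blocks cell death in *fc2*. By the labels, plants in cycling light had 17 days of constant light and 2 days of 16 h light and 8 h dark, those in 24 h light had 19 days of constant light, and all were harvested on day 19, 1 h after subjective dawn. Every library held leaves pooled from 3 plants. Each mutant is represented by 1 allele combination and no *pub4* single mutant was measured, so an effect of *pub4* can only be seen in the *fc2* background.

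Libraries held 26994499 to 39382316 counts, and replicates differed by more than sampling noise. *FC2* RNA, which checks the labels, was lower in both mutants in both light conditions, at 46.3, 56.0 and 48.3 CPM (counts scaled to 1000000 counts a library) in *fc2* and 56.9, 68.9 and 56.2 CPM in *fc2 pub4*, against 172, 171 and 157 CPM in wt in cycling light. All 4 leaf mesophyll markers (*RBCS1A*, *LHCB1.3*, *LHCB2.1* and *CA1*) were abundant everywhere, but their summed level was 10829 to 14232 CPM in *fc2* in cycling light, against 30907 to 32765 CPM in wt, and the part of this in the results was not tested. In bulk leaves, fewer cells of a type and less RNA per cell cannot be told apart. Root markers were at or near 0, with *EXPA7* at 0 in every library. The 7 flower markers were detected at low levels, with sums of 3.19 to 44.9 CPM, and were highest in *fc2* in 24 h light. CPM are on the scale of the trimmed mean of M values (TMM) over all libraries, log2FC are fitted log2 fold changes, and a gene was called at an adjusted p (padj) under 0.01 from edgeR's quasi-likelihood test over all genes tested.

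The 33 genes are spread over all 5 chromosomes, with tandem arrays on 1 and 2. The largest array on chromosome 2 holds *GSTU1* to *GSTU7* in 1 strand direction, between positions 12617936 and 12632538 of TAIR10.1. Chromosome 1 holds *GSTU11* with *GSTU12*, *GSTU17* with *GSTU18*, *GSTU19* with *GSTU20* and *GSTU22*, *GSTU24* with *GSTU25* and *GSTU26*, and *GSTF6* with *GSTF7*. Sequence repeated elsewhere was rare in these genes. Of all windows of 50 bases, the read length, 10.3% in *GSTF6* and 10.04% in *GSTF7* were shared between that pair, 1.67% of those in *GSTU8* were repeated, and none in the other members.

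Promoters of 5 members from 3 separate arrays are shown, among them those of *GSTU3* and *GSTU11*, which had the largest increases in *fc2*. *GSTU8*, *GSTU2* and *GSTU9* are not shown, although their log2FC in *fc2* against wt in cycling light exceeded those of *GSTU1*, *GSTU4* and *GSTF7*. The same holds for *GSTU12*, whose fitted log2FC was 3.77 to 4.10 with all libraries kept, from 3, 0 and 2 counts in wt. The windows are the 250 bases before the annotated start in TAIR10.1 (RefSeq), each on the minus strand, 5′ to 3′, and overlap no annotated gene. Capitals mark TGACG, the core of the as-1 element read by TGA factors, and TTGAC, the core of the W-box read by WRKY factors, on either strand (CGTCA and GTCAA), and the letters TTGACG would count as both.
GSTU3, chr2:12629641-12629890: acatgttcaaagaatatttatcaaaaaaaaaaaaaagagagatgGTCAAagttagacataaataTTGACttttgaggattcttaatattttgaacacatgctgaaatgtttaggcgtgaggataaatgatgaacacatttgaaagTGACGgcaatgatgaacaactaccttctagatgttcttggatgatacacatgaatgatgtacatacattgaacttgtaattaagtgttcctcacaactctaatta
GSTU1, chr2:12632539-12632788: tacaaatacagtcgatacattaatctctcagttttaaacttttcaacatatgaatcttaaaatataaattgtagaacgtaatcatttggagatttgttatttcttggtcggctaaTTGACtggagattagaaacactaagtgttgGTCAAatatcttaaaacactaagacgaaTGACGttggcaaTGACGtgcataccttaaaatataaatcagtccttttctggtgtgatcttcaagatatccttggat
GSTU4, chr2:12627892-12628141: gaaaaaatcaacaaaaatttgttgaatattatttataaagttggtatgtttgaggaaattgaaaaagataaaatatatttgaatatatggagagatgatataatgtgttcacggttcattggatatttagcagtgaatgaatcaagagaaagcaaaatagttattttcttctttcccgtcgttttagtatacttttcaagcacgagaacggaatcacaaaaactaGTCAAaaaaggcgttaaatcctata
GSTU11, chr1:26338819-26339068: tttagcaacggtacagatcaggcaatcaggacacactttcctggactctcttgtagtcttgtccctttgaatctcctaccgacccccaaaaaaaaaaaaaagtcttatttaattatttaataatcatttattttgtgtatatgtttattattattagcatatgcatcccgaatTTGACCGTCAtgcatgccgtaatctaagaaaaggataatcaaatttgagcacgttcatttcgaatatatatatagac
GSTF7, chr1:659981-660230: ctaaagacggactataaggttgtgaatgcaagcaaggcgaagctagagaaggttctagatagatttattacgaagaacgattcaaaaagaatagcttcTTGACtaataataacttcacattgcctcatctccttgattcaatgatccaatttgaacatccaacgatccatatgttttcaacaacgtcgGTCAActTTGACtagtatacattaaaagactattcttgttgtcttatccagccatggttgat

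*GSTU1* had 2 copies of TGACG in this window and *GSTU3* and *GSTU11* had 1, while *GSTU4* and *GSTF7* had none. In *GSTU11* the copy stands directly beside a TTGAC, and *GSTF7* carried 3 TTGAC. Over a window from 250 bases before to 50 after the start, TGACG was present in 16 of 33 members (48.5%) and in 23.1% of 27443 promoters of the same length. TTGAC was present in 66.7% of members and 50.5% of all promoters, and CACGTG, the G-box, in 9.09% and 7.68%. In that window *GSTU8* and *GSTU2*, whose upstream bases are not shown, held neither TGACG nor TTGAC. *GSTU9* held 2 TGACG and 1 TTGAC, and *GSTU12* held no TGACG and 2 TTGAC. Of the 18 members that were higher in *fc2* in cycling light (described next), 10 held a TGACG, as did 3 of the 6 that were lower. These matches are descriptions of letters and were not tested.

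In cycling light, 24 of the 31 members tested differed between *fc2* and wt, 18 higher and 6 lower. Over all 20122 genes tested, 21.8% were called higher and 21% lower. The median log2FC of the members was 1.35, against 0.00 over all genes. Scaling by library size alone shifted the median of all genes to 0.23 and gave 20 members higher and 3 lower. *GSTU2* and *GSTU12*, both called higher, passed the filter on low counts only with their *fc2* libraries. Asking for at least 10 counts in every library gave 16 members higher and 6 lower. All of the increases above a log2FC of 1.5 (14 members) were in 4 of the tau genes of the chromosome 2 array, 6 other tau genes and 4 phi genes. The share of all genes past that log2FC is not given here, so this count only locates the increases. *GSTU22* (AT1G78340) and *GSTF14* (AT1G49860) had too few counts to be tested.

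The chromosome 2 array held both the largest increase and a member that was lower. *GSTU3* (AT2G29470) was at 122, 113 and 53.7 CPM in *fc2*, 1.51, 3.30 and 1.38 CPM in *fc2 pub4* and 0.55, 2.12 and 0.36 CPM in wt in cycling light. The 3 *fc2* libraries stood far above all others, and those of *fc2 pub4* overlapped wt. The log2FC of *GSTU3* was 6.72 ± 0.50 (SE) in *fc2* against wt (padj = 9.76e-06), and 7.76 without wt replicate 2, the highest of the wt libraries. Its libraries in 24 h light lay between 0.16 and 1.21 CPM in all 3 genotypes.

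*GSTU1* (AT2G29490), the neighbor at the upstream end of the array, was at 24.0, 23.8 and 10.4 CPM in *fc2*, 1.41, 2.82 and 1.60 CPM in *fc2 pub4* and 1.63, 2.28 and 1.79 CPM in wt (log2FC 3.37 ± 0.34 in *fc2* against wt, padj = 4.14e-05). *GSTU4* (AT2G29460), which has been linked to camalexin metabolism, had 85.7, 88.3 and 64.9 CPM in *fc2*, 11.4, 22.4 and 11.2 CPM in *fc2 pub4* and 8.91, 9.79 and 6.68 CPM in wt (log2FC 3.26 ± 0.16, padj = 1.75e-06). Both genes were high only in the *fc2* libraries, although every *fc2 pub4* library of *GSTU4* was also above wt. *GSTU2* (AT2G29480), between *GSTU1* and *GSTU3*, was weak, at 4.20, 4.92 and 1.70 CPM in *fc2*, 0.21, 0.22 and 0.22 CPM in *fc2 pub4* and 0.04, 0.46 and 0.36 CPM in wt (log2FC 3.66 ± 0.58, padj = 6.19e-04). Of its exon bases, 70.3% overlap a gene annotated on the opposite strand, and since the treatment of strand in counting is not given in the sources used here, reads of the pair cannot be told apart.

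The remaining members of the array changed less. *GSTU6* (AT2G29440) was at 5.56, 7.20 and 4.94 CPM in *fc2*, 1.95, 2.74 and 1.89 CPM in *fc2 pub4* and 2.03, 1.70 and 3.14 CPM in wt (log2FC 1.35 ± 0.24, padj = 0.0012). *GSTU7* (AT2G29420) averaged 49.7 ± 4.9 CPM in *fc2*, 28.8 ± 1.4 CPM in *fc2 pub4* and 25.4 ± 2.4 CPM in wt (SD, n = 3 each), with a log2FC of 0.98 ± 0.09 between *fc2* and wt. Opposite-strand genes overlap 29.9% of the exon bases of *GSTU6* and 68.9% of those of *GSTU7*. *GSTU5* (AT2G29450), the most abundant member of the array, went the other way, with 473, 431 and 417 CPM in *fc2*, 516, 554 and 491 CPM in *fc2 pub4* and 544, 542 and 585 CPM in wt. Its log2FC was small, at -0.33 ± 0.07 (padj = 0.00269), and the call was lost without wt replicate 1, wt replicate 3 or *fc2* replicate 2 (padj 0.011 to 0.022) and with library size alone, at a log2FC of -0.10 (padj = 0.247). Neighbors a few kilobases apart thus had log2FC between -0.33 and 6.72 in the same libraries.

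**Figure D1:**
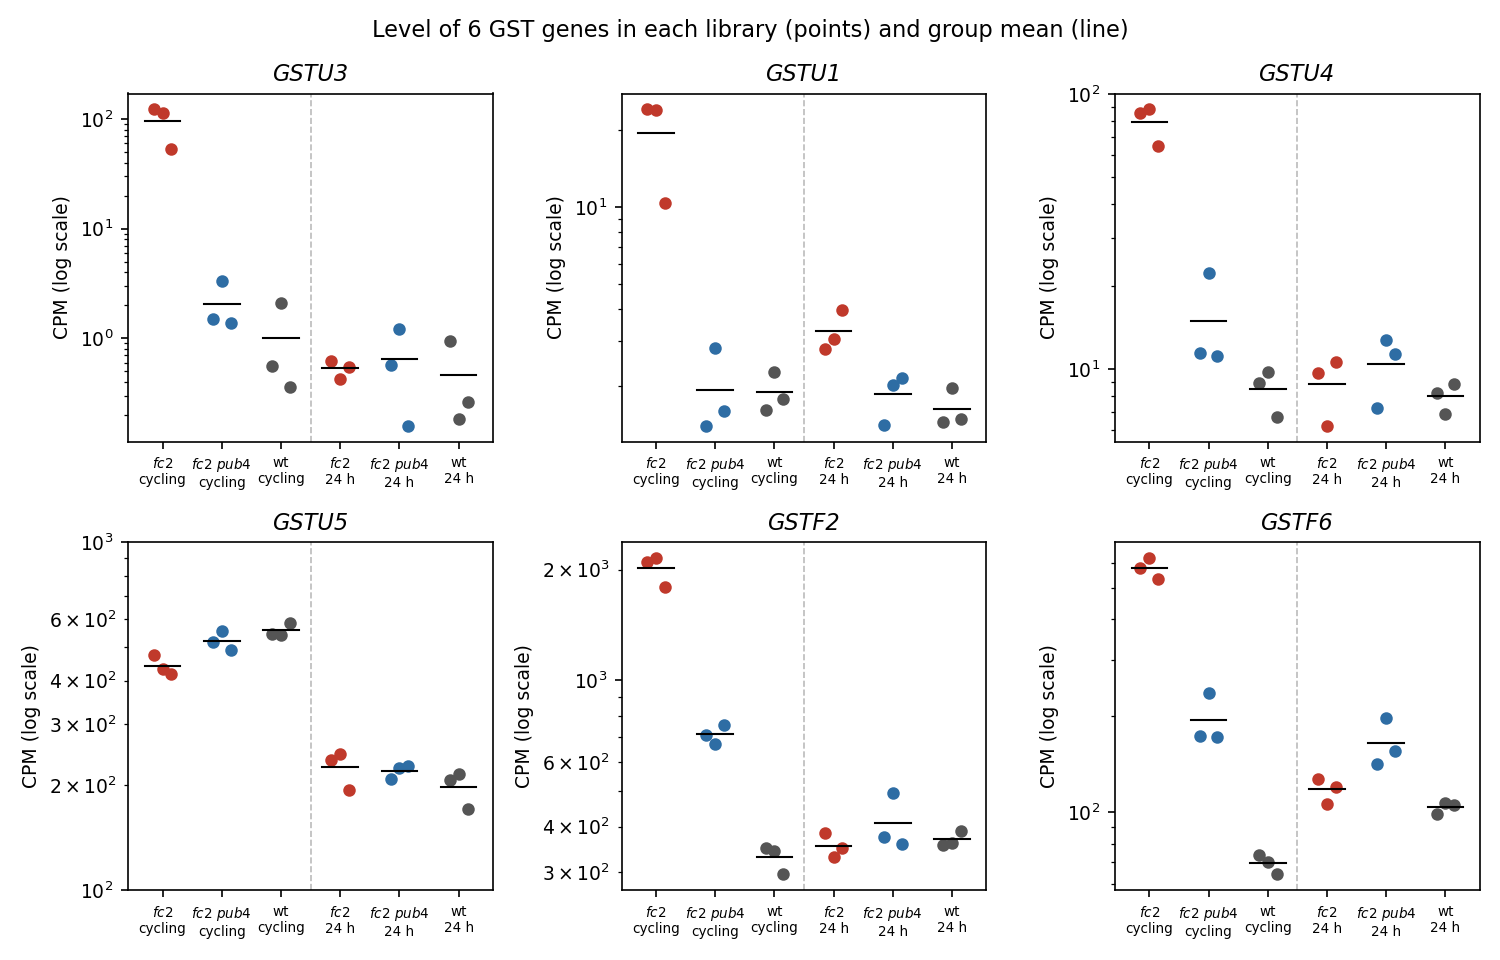
Level of *GSTU3*, *GSTU1*, *GSTU4*, *GSTU5*, *GSTF2* and *GSTF6* in CPM (vertical axis, logarithmic) in the 6 groups (horizontal axis), with 1 point for each of 3 libraries and a line at the mean. In cycling light the *fc2* points of 5 of these genes lie above all others, *GSTF2* and *GSTF6* have *fc2 pub4* points between *fc2* and wt, and *GSTU5* is higher in cycling light in every genotype.

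Outside that array, *GSTU11* (AT1G69930) and *GSTU8* (AT3G09270) had the largest increases. *GSTU11* was at 10.7, 11.1 and 7.43 CPM in *fc2*, 0.45, 1.59 and 0.58 CPM in *fc2 pub4* and 0.41, 0.50 and 0.28 CPM in wt (log2FC 4.68 ± 0.26, padj = 2.66e-06). *GSTU8* was at 56.9, 58.5 and 46.3 CPM in *fc2*, 6.86, 7.26 and 7.09 CPM in *fc2 pub4* and 1.63, 2.78 and 3.16 CPM in wt (log2FC 4.41 ± 0.18, padj = 1.12e-06). Both were highest in *fc2* by a wide margin, and in *GSTU8* the 3 genotypes did not overlap. *GSTU12* (AT1G69920), the array partner of *GSTU11*, was at 1.07, 1.20 and 0.40 CPM in *fc2* and 0.31, 0.59 and 0.15 CPM in *fc2 pub4*, but had 3, 0 and 2 counts in wt. Measured against 3 counts a library, it was at least 8.37-fold higher in *fc2* (padj = 0.00157, and 0.012 without wt replicate 3).

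*GSTU9* (AT5G62480) was at 21.3, 25.6 and 18.8 CPM in *fc2*, 3.84, 4.82 and 4.87 CPM in *fc2 pub4* and 2.00, 2.20 and 1.54 CPM in wt (log2FC 3.55 ± 0.17, padj = 1.62e-06). *GSTU10* (AT1G74590) had 33.6, 29.9 and 24.1 CPM in *fc2*, 7.65, 10.4 and 7.20 CPM in *fc2 pub4* and 4.77, 3.90 and 4.92 CPM in wt (log2FC 2.69 ± 0.14, padj = 2.37e-06). The order *fc2*, *fc2 pub4*, wt held in every library of these 2 genes. *GSTU24* (AT1G17170), an enzyme able to conjugate the explosive TNT, was at 23.6, 24.9 and 10.04 CPM in *fc2*, 1.99, 5.22 and 2.26 CPM in *fc2 pub4* and 1.92, 3.32 and 2.45 CPM in wt (log2FC 2.95 ± 0.35, padj = 1.14e-04). *GSTU25* (AT1G17180), next to it, was below 1 CPM in every library, with a log2FC of 1.53 ± 0.79 that was not called (padj = 0.131), and *GSTU26* (AT1G17190), the third of that array, had 2.12 to 2.38 CPM in *fc2* and 2.57 to 3.44 CPM in wt (padj = 0.0644).

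*GSTU19* (AT1G78380), one of the most abundant tau enzymes of the leaf, was at 495, 479 and 319 CPM in *fc2*, 196, 241 and 188 CPM in *fc2 pub4* and 225, 213 and 210 CPM in wt (log2FC 1.01 ± 0.14, padj = 3.37e-04). Its array neighbor *GSTU20* (AT1G78370), which acts in glucosinolate synthesis and binds the jasmonate-conjugating enzyme JAR1, was lower instead. It had 110, 105 and 145 CPM in *fc2*, 89.6, 145 and 91.2 CPM in *fc2 pub4* and 207, 172 and 230 CPM in wt (log2FC -0.75 ± 0.14, padj = 0.00165). The call was lost with library size alone (padj = 0.012) and without *fc2* replicate 2 (padj = 0.011). *GSTU22*, the third gene listed here from that array, had at most 3 counts in each wt library in cycling light and 0.22 to 0.27 CPM in *fc2*.

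The clearest decreases were in the chromosome 1 pair *GSTU17* (AT1G10370) and *GSTU18* (AT1G10360). *GSTU17*, a gene known for roles in light and abscisic acid signaling, was at 89.3, 103 and 88.5 CPM in *fc2*, 108, 114 and 121 CPM in *fc2 pub4* and 189, 201 and 182 CPM in wt (log2FC -1.01 ± 0.08, padj = 9.67e-06). *GSTU18* was at 40.3, 38.1 and 47.2 CPM in *fc2*, 75.9, 79.2 and 83.5 CPM in *fc2 pub4* and 98.4, 100.4 and 91.8 CPM in wt (log2FC -1.2 ± 0.09, padj = 9.2e-06). Wt libraries were the highest for both genes, with no overlap between genotypes. The pair overlaps on the same strand over 6.12% of the exon bases of *GSTU17*. *GSTU13* (AT1G27130), an enzyme of indole glucosinolate metabolism in defense, was also lower (log2FC -0.80 ± 0.07, padj = 2.32e-05), as was *GSTU27* (AT3G43800) (log2FC -0.48 ± 0.08, padj = 5.3e-04), whose call was lost with library size alone (padj = 0.011). *GSTU16* (AT1G59700) and *GSTU28* (AT1G53680) had log2FC of 0.19 and -0.21 and were not called.

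Among the phi genes, 4 were strongly higher in *fc2*, and they included the most abundant members. *GSTF2* (AT4G02520), which binds small molecules such as camalexin, was at 2100.3, 2154 and 1795 CPM in *fc2*, 711, 673 and 758 CPM in *fc2 pub4* and 349, 344 and 297 CPM in wt (log2FC 2.62 ± 0.10, padj = 7.87e-07). *GSTF3* (AT2G02930) was at 94.0, 97.8 and 83.5 CPM in *fc2*, 34.8, 34.8 and 34.2 CPM in *fc2 pub4* and 17.0, 14.9 and 12.7 CPM in wt (log2FC 2.64 ± 0.11, padj = 1.13e-06). In both, the *fc2 pub4* libraries lay between the other genotypes without touching either. Opposite-strand exons of AT4G02510, which encodes the plastid import receptor TOC159, overlap 60.5% of the exon bases of *GSTF2*, and that gene averaged 323 CPM in *fc2*, 393 CPM in *fc2 pub4* and 388 CPM in wt.

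*GSTF6* (AT1G02930), which takes part in camalexin synthesis, was at 579, 623 and 533 CPM in *fc2*, 173, 236 and 173 CPM in *fc2 pub4* and 73.8, 70.1 and 64.2 CPM in wt (log2FC 3.07 ± 0.09, padj = 3.09e-07). Its neighbor *GSTF7* (AT1G02920) was at 399, 432 and 362 CPM in *fc2*, 117, 142 and 113 CPM in *fc2 pub4* and 44.8, 40.1 and 41.6 CPM in wt (log2FC 3.25 ± 0.09, padj = 2.35e-07). The pair moved alike in all 3 genotypes, though reads from their shared stretches could have been split between them. *GSTF10* (AT2G30870) was slightly higher in *fc2* (log2FC 0.39 ± 0.09, padj = 0.00403), a call lost without wt replicate 2 or wt replicate 3 (padj 0.021 and 0.022). *GSTF8* (AT2G47730), a plastid-targeted enzyme, *GSTF9* (AT2G30860) and *GSTF11* (AT3G03190), which acts in glucosinolate synthesis and lies wholly opposite another gene, had log2FC of -0.11, 0.24 and -0.84 and were not called.

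**Figure D2:**
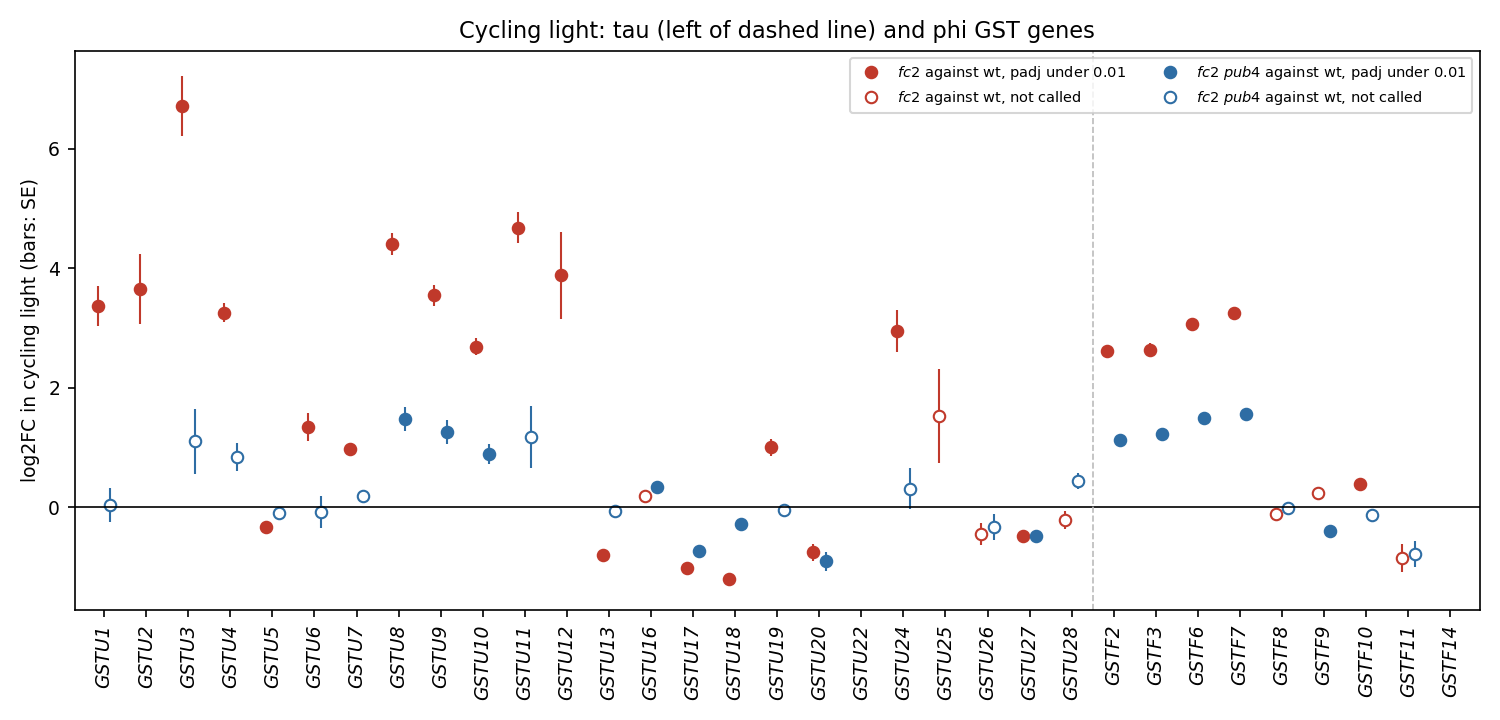
Fitted log2FC (vertical axis) of each tau and phi gene (horizontal axis) in cycling light, for *fc2* against wt and *fc2 pub4* against wt, with SE bars; filled points had a padj under 0.01. *GSTU3* stands highest at 6.72 in *fc2*, and *GSTF2*, *GSTF3*, *GSTF6* and *GSTF7* have filled points in both mutants.

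One library of each mutant stood apart within its group. In *fc2* replicate 3 in cycling light, *GSTU1*, *GSTU3* and *GSTU24* were at 0.433, 0.456 and 0.414 times the mean of replicates 1 and 2, and *GSTF2* and *GSTF6* at 0.844 and 0.887 times. All 18 members that were higher in *fc2* were below that mean in this library, and the share of all such genes is not given here. Across all genes compared, replicate 3 differed from replicates 1 and 2 by a chi-square per gene of 35.9 and 26.3. Replicates 1 and 2 differed by 7.13, so the shift is not shown to be particular to the members. Replicate 3 also had the highest sums of its group for the mesophyll markers, at 14232 CPM against 10829 and 10976 CPM, and for the flower markers, at 28.0 CPM against 13.0 and 10.1 CPM, and their part in the result was not tested. Without it, the log2FC of every member called higher in *fc2* remained called. In *fc2 pub4* replicate 2 in cycling light, *GSTU11*, *GSTU24* and *GSTU3* were at 3.10, 2.46 and 2.28 times the mean of the other 2 libraries, while *GSTF2* and *GSTU8* were at 0.917 and 1.04 times.

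Reads counted to the 33 genes together reached 5769, 5899 and 5030 CPM in *fc2*, 2874, 3226 and 2964 CPM in *fc2 pub4* and 2755, 2706 and 2706 CPM in wt in cycling light. *GSTF2* alone took 36.2% of these reads in *fc2*, 23.7% in *fc2 pub4* and 12.1% in wt. The tau genes took 29.9% in *fc2*, 42.4% in *fc2 pub4* and 55.2% in wt. The summed level in 24 h light was 2630 to 2966 CPM in *fc2*, 3215 to 3503 CPM in *fc2 pub4* and 2894 to 3175 CPM in wt, so that no genotype stood apart as *fc2* did in cycling light.

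**Figure D3:**
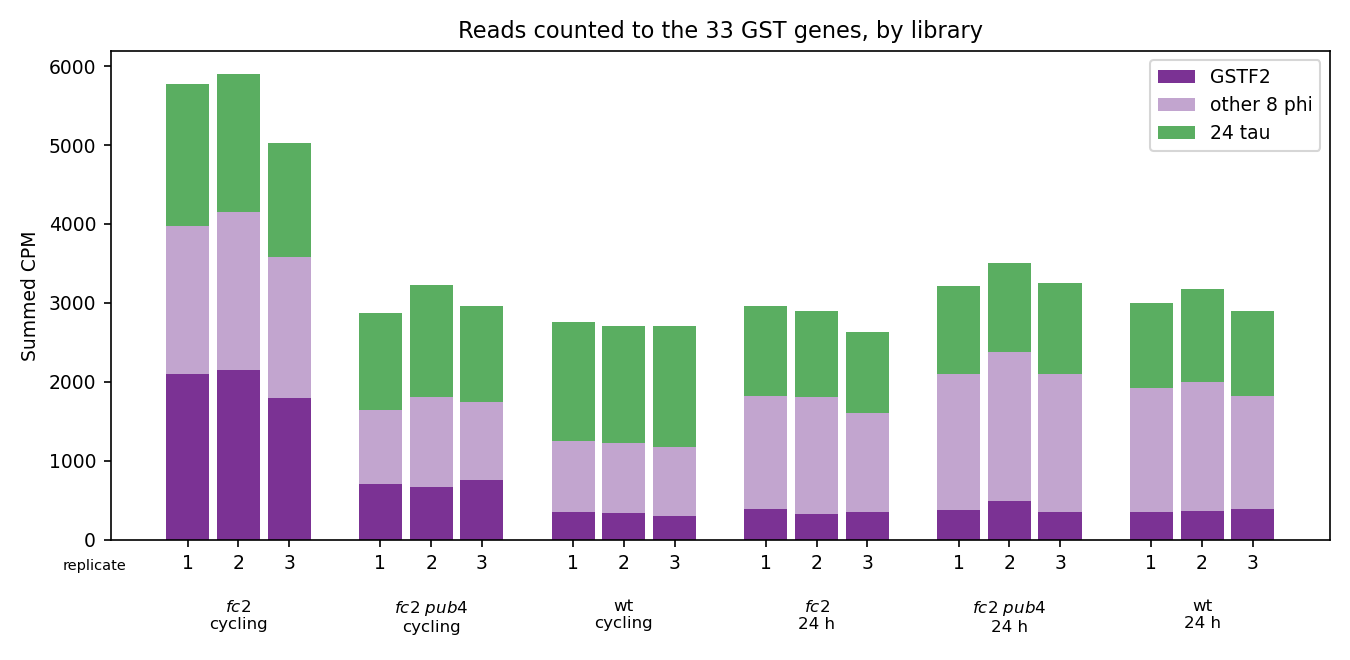
Summed CPM of the 33 genes (vertical axis, from 0) in each of the 18 libraries (bars, by group and replicate), divided into *GSTF2*, the other 8 phi genes and the 24 tau genes. The 3 *fc2* libraries in cycling light reach 5030 to 5899 CPM, and all other libraries lie between 2630 and 3503 CPM.

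Levels of different genes were compared per kilobase of annotated exon. In *fc2* in cycling light the highest was *GSTF2*, at 1371 ± 132 CPM per kb, followed by *GSTF6* at 488 ± 38 and *GSTU19* at 385 ± 87 CPM per kb (SD, n = 3 each). In *fc2 pub4* the first places were held by *GSTF2* at 485, *GSTU5* at 410 and *GSTU19* at 186 CPM per kb. In wt in cycling light *GSTU5* came first at 439 ± 19 CPM per kb, and *GSTF2* and *GSTF9*, at 224 ± 20 and 223 ± 15 CPM per kb, did not differ beyond their spread. *GSTF9* was the highest member in 24 h light in every genotype, at 479 CPM per kb in *fc2*, 680 in *fc2 pub4* and 587 in wt. *GSTU3*, with the largest log2FC, held place 10 in this order in *fc2* in cycling light, at 89.8 CPM per kb, and place 27 in wt.

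**Figure D4:**
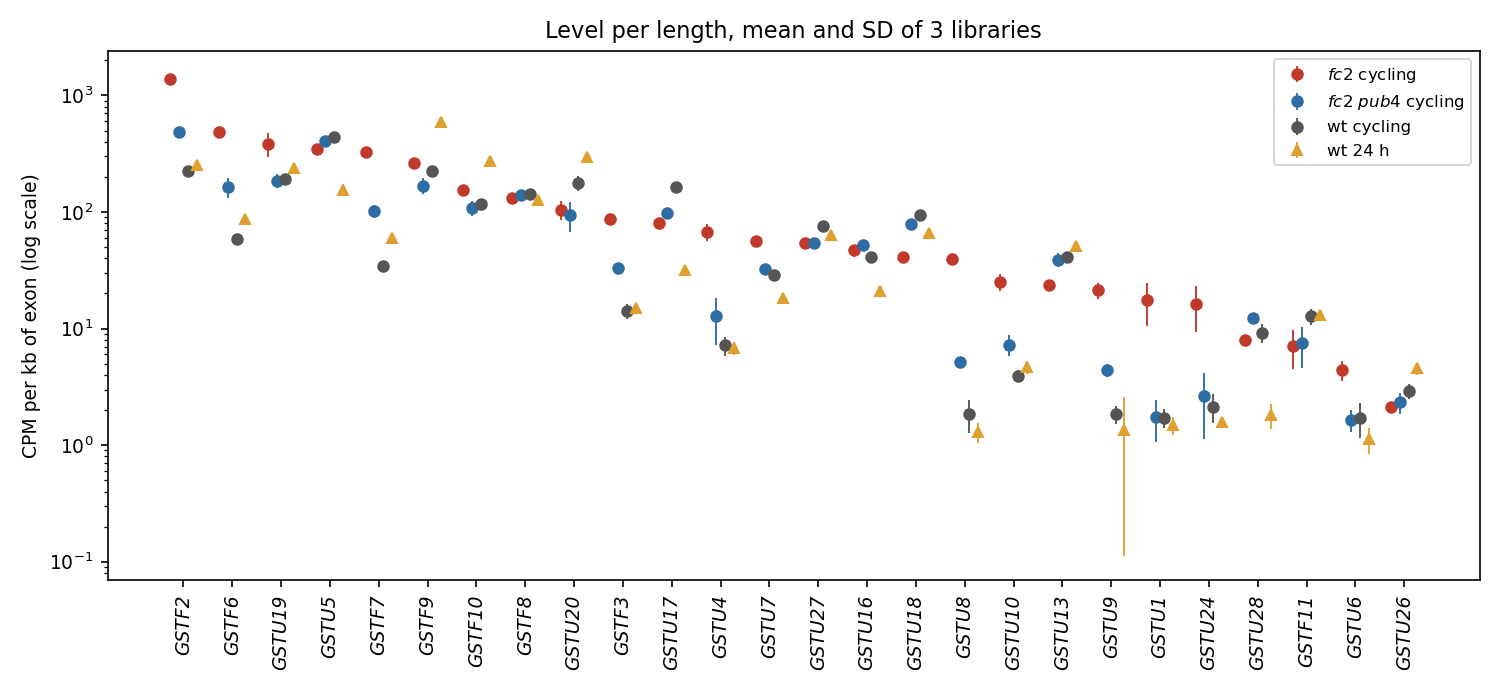
Level in CPM per kb of exon (vertical axis, logarithmic) of the 26 members whose mean was above 0.5 in all 6 groups, in the order of their level in *fc2* in cycling light, with means as points and SD over 3 libraries as bars. *GSTF2* is first at 1371 CPM per kb in *fc2*, and *GSTF9*, at 587 CPM per kb, is highest in wt in 24 h light.

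In cycling light, *fc2 pub4* differed from wt in 13 of the 28 members tested, with 8 higher and 5 lower. Over all genes 6.32% were higher and 8.02% lower. Their median log2FC was 0.12, against 0.01 over all genes. With library size alone the calls were 8 higher and 3 lower. The members higher in *fc2 pub4* were *GSTU8*, *GSTU9*, *GSTU10*, *GSTU16*, *GSTF2*, *GSTF3*, *GSTF6* and *GSTF7*. This comparison and that of *fc2* share the wt libraries, so their values are given side by side.

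All 4 phi genes named above were called in both mutants. Their log2FC against wt were 2.62 in *fc2* and 1.12 ± 0.06 in *fc2 pub4* for *GSTF2*, 2.64 and 1.23 ± 0.09 for *GSTF3*, 3.07 and 1.49 ± 0.11 for *GSTF6*, and 3.25 and 1.56 ± 0.08 for *GSTF7* (padj in *fc2 pub4* from 3.76e-07 to 3.16e-06). None of the members of the chromosome 2 array was called between *fc2 pub4* and wt. There the log2FC were 3.37 in *fc2* and 0.04 ± 0.29 in *fc2 pub4* for *GSTU1*, 6.72 and 1.11 ± 0.55 for *GSTU3*, and 3.26 and 0.84 ± 0.24 for *GSTU4*, and *GSTU2* was not tested. *GSTU24* had 2.95 and 0.31 ± 0.34. Scattered tau genes outside the arrays were called in both mutants, with 4.41 and 1.48 ± 0.20 for *GSTU8*, 3.55 and 1.26 ± 0.20 for *GSTU9* and 2.69 and 0.89 ± 0.16 for *GSTU10*. The call of *GSTU10* in *fc2 pub4* was lost without wt replicate 2 (padj = 0.011), and that of *GSTU9* when all 18 libraries entered the fit (padj = 0.041).

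*GSTU16* was called only in *fc2 pub4*, at 58.3, 60.5 and 56.7 CPM in *fc2 pub4* and 47.1, 46.8 and 45.9 CPM in wt (log2FC 0.34 ± 0.05, padj = 6.26e-04, and 0.014 with all 18 libraries in the fit). In *fc2* it had 59.8, 49.0 and 49.2 CPM (log2FC 0.19 ± 0.08, padj = 0.0819), and whether the 2 mutants differ is given by their own comparison, with a log2FC of 0.14 ± 0.09 (padj = 0.192). *GSTU17*, *GSTU18*, *GSTU20*, *GSTU27* and *GSTF9* were lower in *fc2 pub4* than in wt, by log2FC of -0.73, -0.27, -0.90, -0.47 and -0.40. *GSTU27* was at 57.2, 57.0 and 56.0 CPM in *fc2 pub4* and 82.5, 81.8 and 74.1 CPM in wt, beside a log2FC of -0.48 in *fc2*. *GSTF9* was at 179, 243 and 199 CPM in *fc2 pub4* and 276, 256 and 292 CPM in wt. The calls of *GSTF9* and *GSTU18* were lost with library size alone (padj 0.024 and 0.020) and with all 18 libraries in the fit (padj 0.016 and 0.036), and that of *GSTF9* with DESeq2 (padj = 0.027). They also depended on single libraries, since padj rose to at most 0.037 for *GSTF9* when any of 5 libraries (all but *fc2 pub4* replicate 2) was left out, and to at most 0.020 for *GSTU18* without wt replicate 1, wt replicate 2 or *fc2 pub4* replicate 1.

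Set against *fc2* in cycling light, *fc2 pub4* had 18 members lower and 3 higher of 31 tested, where 19% of all genes were lower and 17.4% higher. The median log2FC was -1.35, against 0.01 over all genes. *GSTU2*, called lower, again passed the filter through its *fc2* libraries, and at least 10 counts in every library gave 17 lower and 3 higher. The *fc2* libraries are those of the comparison with wt, so the values again stand side by side. *GSTU12* was not called here (log2FC -1.35 ± 0.56, padj = 0.0701), and *GSTF9* was lower (log2FC -0.65 ± 0.11). The largest differences were in the array, with -5.56 ± 0.39 for *GSTU3*, -4.05 ± 0.48 for *GSTU2* and -3.33 ± 0.36 for *GSTU1*, and in *GSTU11* at -3.50 ± 0.36, or -4.25 without *fc2 pub4* replicate 2. *GSTF2*, *GSTF3*, *GSTF6* and *GSTF7* differed by -1.51 ± 0.09, -1.42 ± 0.07, -1.59 ± 0.12 and -1.69 ± 0.10. *GSTU13*, *GSTU18* and *GSTU28* exceeded their *fc2* levels in *fc2 pub4*, by 0.72, 0.92 and 0.64. The call of *GSTU28* was lost without *fc2* replicate 2 or *fc2 pub4* replicate 1 (padj 0.011 each), and that of *GSTF10* (log2FC -0.53) without *fc2* replicate 2, *fc2 pub4* replicate 1 or *fc2 pub4* replicate 3 (padj 0.016 to 0.023).

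In 24 h light, 1 of 28 members differed between *fc2* and wt, where 0.315% of all genes were called. This was *GSTU8*, at 5.82, 4.90 and 4.50 CPM in *fc2*, 3.42, 3.71 and 3.48 CPM in *fc2 pub4* and 2.14, 1.48 and 1.65 CPM in wt, in an order that held in every library. Its log2FC in *fc2* was 1.52 ± 0.20 (padj = 0.00835), and leaving out any 1 of the 6 libraries raised padj to between 0.018 and 0.046. Flower markers summed to 19.1 to 44.9 CPM in these *fc2* libraries, against 4.04 to 8.23 CPM in wt, with 1 of 7 (*SEP1*) called, and their part in the result was not tested. Values for *GSTU1* were 2.79, 3.06 and 3.98 CPM in *fc2* and 1.46, 1.97 and 1.5 CPM in wt (log2FC 1.00 ± 0.23, padj = 0.0519). *GSTU9* was at 7.64, 3.52 and 3.22 CPM in *fc2* and 0.94, 2.86 and 0.41 CPM in wt. These libraries did not overlap, but the gene was not called (log2FC 1.78 ± 0.55, padj = 0.136).

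With edgeR no member was called for *fc2 pub4* against wt under 24 h light, where 0.763% of all genes were. Of the 28 tested, 9 had an unadjusted p under 0.05, and DESeq2 called 4. Neither count has its share over all genes beside it, so they do not set the members apart. *GSTF6* was at 142, 198 and 155 CPM in *fc2 pub4* and 98.7, 107 and 106 CPM in wt (log2FC 0.66 ± 0.11, padj = 0.0133), so that the libraries did not overlap. Between *fc2 pub4* and *fc2* in 24 h light, 1 of 28 members was called, and 1.49% of all genes. *GSTU10* was at 9.18, 9.38 and 8.88 CPM in *fc2 pub4*, 5.38, 5.85 and 4.99 CPM in *fc2* and 4.63, 5.52 and 5.99 CPM in wt. The level in *fc2 pub4* exceeded that in *fc2*, with a log2FC of 0.76 ± 0.11 (padj = 0.00516), and leaving out any library but *fc2* replicate 2 raised padj to between 0.017 and 0.028.

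The interaction of genotype and light asks whether the difference between *fc2* and wt was itself different in cycling and in 24 h light. It was called for 20 of 32 members, 15 with a more positive difference in cycling light and 5 with a more negative one, against 15.3% and 16% of all genes. The largest were *GSTU3* (6.55 ± 1.21), *GSTU11* (4.58 ± 0.42), *GSTF7* (3.20 ± 0.12), *GSTU4* (3.09 ± 0.27), *GSTU8* (2.88 ± 0.29) and *GSTF6* (2.88 ± 0.12) on the log2 scale. *GSTU3* rests on wt replicate 1 in 24 h light, without which the value was 5.46 with a padj of 0.035, and without wt replicate 2 in cycling light it was 7.60. With library size alone the calls of *GSTU5* and *GSTU27* were lost (padj 0.096 and 0.067). *GSTU9*, with 1.75 ± 0.64, was not called (padj = 0.0402). For *fc2 pub4* the same interaction was called for 1 of 28 members, *GSTF2* (0.98 ± 0.15, padj = 0.00526), and for 0.248% of all genes, and the call was lost in 9 of the 12 fits that left out 1 library (padj up to 0.024).

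**Figure D5:**
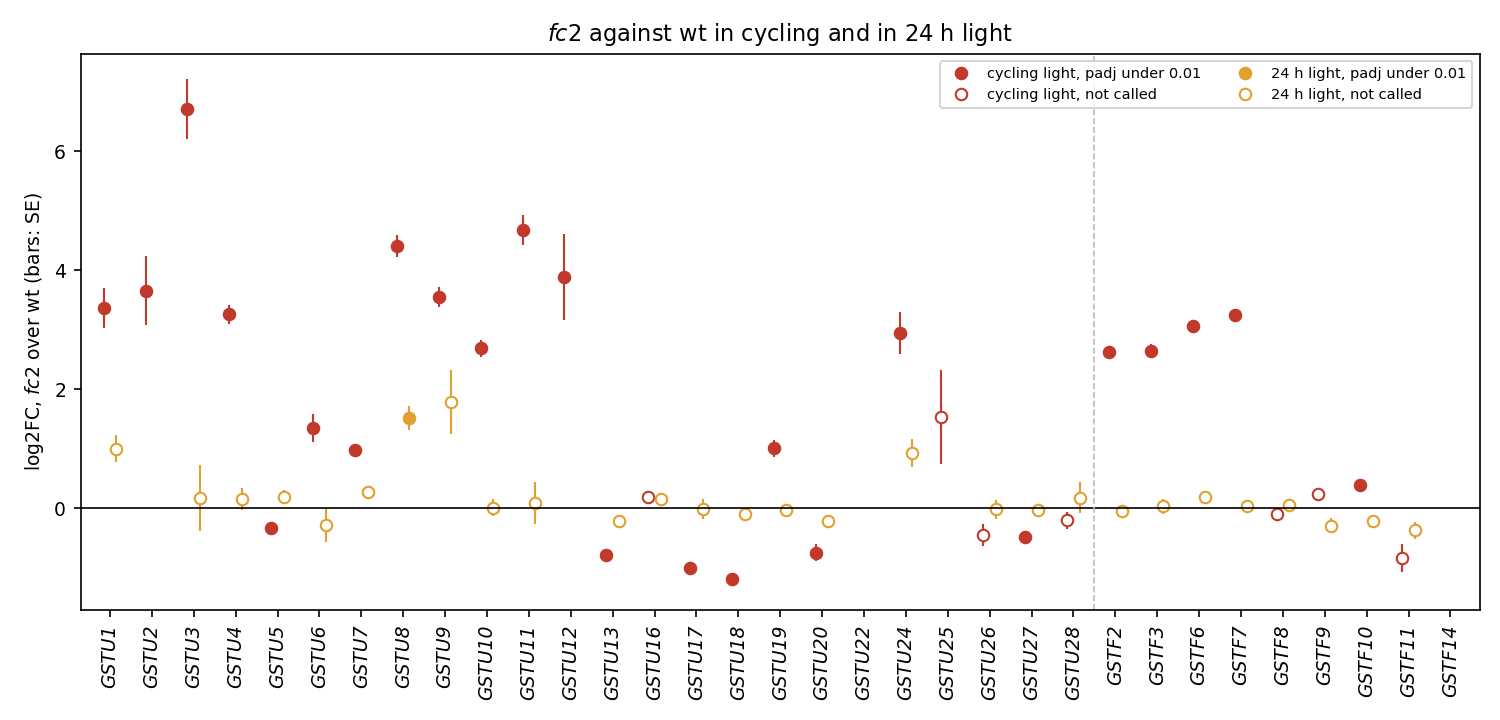
Fitted log2FC of *fc2* against wt (vertical axis) of each member (horizontal axis) in cycling light and in 24 h light, with SE bars; filled points had a padj under 0.01. In 24 h light *GSTU8* is the filled point, at 1.52, while in cycling light 24 members are filled.

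Some members also differed between the light conditions in wt, although their median log2FC was only 0.12, against -0.004 over all genes. Of 28 tested, 7 were higher and 7 lower in cycling light than in 24 h light, where 19.2% of all genes were higher and 16.1% lower. *GSTU17* was at 189, 201 and 182 CPM in cycling light and 32.8, 40.7 and 37.5 CPM in 24 h light (log2FC 2.37 ± 0.08, padj = 2.14e-08). *GSTU28* had 6.17, 8.46 and 6.44 CPM in cycling light and 1.00, 1.52 and 1.61 CPM in 24 h light (log2FC 2.35 ± 0.22, padj = 1.04e-05), and *GSTU5* had 542 to 585 CPM in cycling light and 170 to 216 CPM in 24 h light (log2FC 1.5 ± 0.09, padj = 4.18e-07). These genes were several-fold apart with no overlap. *GSTU7*, *GSTU16*, *GSTU18* and *GSTU27* were higher by 0.25 to 0.97, and the call of *GSTU27* was lost in 4 of 6 fits without 1 library (padj up to 0.047), with library size alone (log2FC 0.11) and with DESeq2 size factors (padj = 0.012).

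The adjacent phi genes *GSTF9* and *GSTF10*, of which the second is also known as *ERD13*, were the clearest decreases in wt. *GSTF9* was at 276, 256 and 292 CPM in cycling light and 754, 772 and 645 CPM in 24 h light (log2FC -1.40 ± 0.08, padj = 4.77e-07), and *GSTF10* at 143, 133 and 125 CPM in cycling light and 297, 349 and 282 CPM in 24 h light (log2FC -1.21 ± 0.08, padj = 1.44e-06). *GSTU20* and *GSTF7* followed with -0.74 and -0.77, and *GSTF6*, *GSTU13* and *GSTU19* with -0.58, -0.31 and -0.30, the last of which was not called with all 18 libraries in the fit (padj = 0.044). In wt, therefore, *GSTF6* and *GSTF7* were lower in cycling light, whereas *fc2* in cycling light had 533 to 623 CPM of *GSTF6*, against 106 to 127 CPM in *fc2* in 24 h light. A night had ended 1 h before harvest in cycling light only, so the effects of time in the dark and of day length cannot be told apart.

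Other genes of glutathione use and supply were read from a list of 29, which holds 7 further tau and phi genes. In *fc2* against wt in cycling light, 11 of 23 tested were higher and 6 lower, with a median log2FC of 0.28, where 21.8% of all genes were higher and 21% lower. Of the 7 further tau and phi genes, 3 were tested, with 0 called higher and 2 called lower. Of the called genes, *GSTL1*, *GSTZ1* and *GSTU23* had an absolute log2FC above 1, and *GSTF5*, with 1.53 ± 0.42, was not called (padj = 0.0125). *GSTL1*, a lambda-class enzyme, was at 10.8, 12.2 and 9.85 CPM in *fc2*, 2.64, 3.33 and 2.29 CPM in *fc2 pub4* and 1.07, 1.00 and 0.61 CPM in wt (log2FC 3.66 ± 0.20 in *fc2*). *GSTZ1*, the maleylacetoacetate isomerase of tyrosine breakdown, was at 176, 174 and 119 CPM in *fc2*, 39.7, 45.7 and 42.6 CPM in *fc2 pub4* and 34.9, 31.9 and 30.8 CPM in wt (log2FC 2.28 ± 0.15). *GSTU23*, a tau gene outside the 33, was lower, with a log2FC of -1.30 ± 0.22 and under 4 CPM in every library.

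Genes of glutathione supply, transport and breakdown had smaller log2FC. *GSH1* and *GSH2*, which make glutathione, were higher in *fc2* by 0.32 ± 0.07 and 0.31 ± 0.05. Of the glutathione reductases, *GR1* was higher by 0.59 ± 0.08 and the organellar *GR2* lower by a log2FC of -0.38 ± 0.06. Among the vacuolar conjugate transporters, *ABCC3* was higher by 0.82 ± 0.11, *ABCC2* was lower with -0.44 ± 0.06 and *ABCC1* was not called at 0.20 ± 0.06. The gamma-glutamyl transferases *GGT1* and *GGT4* were higher by 0.35 and 0.94. In *fc2 pub4* against wt in cycling light, 3 of 23 of this list were higher and 4 lower, against 6.32% and 8.02% of all genes. In 24 h light 0 of 23 differed between *fc2* and wt in edgeR, where 0.315% of all genes were called. An unadjusted p under 0.05 was reached by 3 of them, a count given without its share over all genes.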

How the data were processed

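RNA-Seq of total leaf tissue was available for 18 libraries in 6 groups of 3. The authors aligned single-end reads to TAIR10 with HISAT2 2.1.0 and deposited whole-number counts per gene for 33602 loci, with no normalization and replicates kept apart. The submitters' processing notes also name StringTie 1.3.4 and DESeq2. The treatment of strand, overlapping genes and reads with several matches is not given in the sources used here, and affects genes that overlap others. Total counts per library were 26994499 to 39382316, and floors of 3 counts cover counting error only.

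Tests were made with edgeR 4.0.16 in R 4.3.3 (filterByExpr, TMM, quasi-likelihood F-test, two-sided, Benjamini-Hochberg over all genes tested), on the libraries of the compared groups, and called at a padj under 0.01. Interactions used 12 libraries. This code was tested on simulated data. Alternatives were DESeq2 1.42.0, other scalings and filters, all 18 libraries, a replicate block, a padj of 0.05, an absolute log2FC above 1.5 as well, and leaving out each library. CPM per kb used exon lengths of the RefSeq annotation of TAIR10.1, which also gave coordinates and promoters. Python 3.11.15 with pandas 2.3.3, numpy 2.4.6 and matplotlib 3.10.9 was used.

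The members, lists and tests were chosen with earlier results of these data known. Values per library were given for all members with an absolute log2FC above 1 that were called in *fc2* against wt in cycling light, for those called in any comparison in 24 h light or in *fc2 pub4* against wt in cycling light, and for members of arrays or of high level. Of the 29 other glutathione genes, those with an absolute log2FC above 1 were named, and a few more were named by their role after their values were seen. Replicates are pools of 3 plants, numbered by the labels. One sequence is not reported here.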

Additional observations from a re-analysis of the deposited data

Results flagged for a closer look

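The difference between *fc2* and wt was itself different in cycling and in 24 h light for 20 members (interaction term, edgeR, padj under 0.01, 12 libraries). The log2 difference of differences was positive for *GSTU1* (2.36), *GSTU3* (6.55), *GSTU4* (3.09), *GSTU6* (1.63), *GSTU7* (0.70), *GSTU8* (2.88), *GSTU10* (2.67), *GSTU11* (4.58), *GSTU19* (1.03), *GSTU24* (2.01), *GSTF2* (2.67), *GSTF3* (2.60), *GSTF6* (2.88), *GSTF7* (3.20) and *GSTF10* (0.60). It was negative for *GSTU5* (-0.53), *GSTU13* (-0.59), *GSTU17* (-1.01), *GSTU18* (-1.11) and *GSTU27* (-0.46). The calls of *GSTU5* (9 of 12 fits, padj up to 0.024), *GSTU24* (3 of 12, padj up to 0.013), *GSTU6* (without wt replicate 2 in 24 h light, padj = 0.011) and *GSTU3* (without wt replicate 1 in 24 h light, padj = 0.035) were lost when 1 library was left out. With library size alone, *GSTU5* (-0.31, padj = 0.096) and *GSTU27* (-0.24, padj = 0.067) were not called. For *fc2 pub4* and wt, the same term was called for *GSTF2* (0.98), a call lost in 9 of 12 fits that left out 1 library (padj up to 0.024).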

How the results depend on the processing

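No called value of a member changed sign under any alternative run. Outside the fits that left out 1 library, 737 of 756 values of called members remained past the threshold and 19 did not. When 1 library was left out, 637 of 696 values remained past it. The 756 values include those at a padj of 0.05. That run only loosened the threshold, so every called member passed it by definition. A member removed by a filter in a run had no value there and was not counted. The share that remained outside those fits was thus partly fixed in advance. Asking for an absolute log2FC above 1.5 as well left 14 of 24 members in *fc2* against wt, 1 of 13 in *fc2 pub4* against wt and 12 of 21 in *fc2 pub4* against *fc2* in cycling light, 2 of 14 in wt between the light conditions, 12 of 20 in the interaction of *fc2*, and 0 in that of *fc2 pub4* and in *fc2 pub4* against *fc2* in 24 h light. In 24 h light *fc2 pub4* against wt had 0 members called, but 2 with library size alone, 3 with no filter, 5 with all 18 libraries, 4 with DESeq2 and 4 at a padj of 0.05. With all 18 libraries in the fit, *fc2 pub4* against wt in cycling light had 9 members instead of 13. For *fc2 pub4* against *fc2* in 24 h light, 1 member became 3 with library size alone, 3 with no filter, 5 with DESeq2 and 5 at a padj of 0.05. The interaction of *fc2 pub4* had 1 member, but 4 with no filter, 6 with DESeq2 and 8 at a padj of 0.05. Shares of all genes in these alternative runs are not given, so the counts show only how the calls depend on the processing.

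Leaving out each library in turn gave 21 to 26 members for *fc2* against wt, 10 to 15 for *fc2 pub4* against wt, 19 to 21 for *fc2 pub4* against *fc2* (all in cycling light), 13 to 14 for wt between light conditions, 17 to 21 for the interaction of *fc2* and 0 to 4 for that of *fc2 pub4*. In 24 h light it gave 0 to 0 for *fc2* against wt and for *fc2 pub4* against wt, and 0 to 3 for *fc2 pub4* against *fc2*. No pairing by replicate number was seen, since deviations of same-numbered libraries of compared groups had correlations of -0.149 to 0.0973 across genes. Whether same-numbered libraries shared growth or harvest was not tested. With the replicate number as a block, the count became 0 for *fc2* against wt, 3 for *fc2 pub4* against wt and 0 for *fc2 pub4* against *fc2* in 24 h light, with *GSTU8* at a padj of 0.012 and *GSTU10* at 0.025. The block also ended the calls of *GSTU5* in *fc2* against wt in cycling light and of *GSTU27* in wt between light conditions (padj 0.011 each). The causes of these changes were not tested. *GSTU2*, *GSTU12*, *GSTU22*, *GSTU25* and *GSTF14* had too few counts in 24 h light to be tested there.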

Other observations

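*GSTF5*, a phi gene outside the 33, was low everywhere but differed between *fc2 pub4* and wt in both light conditions. It was at 1.24, 1.40 and 1.25 CPM in *fc2 pub4*, 0.62, 0.16 and 0.41 CPM in *fc2* and 0.13, 0.11 and 0.19 CPM in wt in 24 h light, with a log2FC of 3.14 ± 0.37 in *fc2 pub4* against wt (edgeR, padj = 0.00338). The wt libraries in 24 h light held only 4, 3 and 5 counts of *GSTF5*, so the size of this log2FC is uncertain. In cycling light it was at 0.96, 1.26 and 0.73 CPM in *fc2 pub4*, 0.72, 0.54 and 0.88 CPM in *fc2* and 0.26, 0.12 and 0.33 CPM in wt (log2FC 1.98 ± 0.44 in *fc2 pub4*, padj = 0.00552). The libraries of *fc2 pub4* and wt did not overlap in either light condition, and the gene was named here after its values were seen. Its *fc2 pub4* and *fc2* libraries overlapped in cycling light. Between these mutants 0 of the 3 further tau and phi genes tested were called in either light condition. *GSTF4*, also outside the 33, went the other way in cycling light, at 2.71, 2.15 and 3.35 CPM in *fc2 pub4* and 5.73, 5.43 and 5.61 CPM in wt (log2FC -1.02 ± 0.18, padj = 0.0012). This decrease was shared by *fc2*, which had 2.48, 2.93 and 3.88 CPM and was also called lower than wt (log2FC -0.84).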
